A study of Mus musculus with 460 samples.

Results

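Ion channel genes of the voltage-gated sodium, calcium and potassium families, together with the remaining potassium channel families, were described in 460 single cells of a mouse lung tumour stroma. Members were all gene rows whose symbol begins with Kcn (Kcnj8 excepted), with Scn followed by a number and a or b, or with Cacna, Cacnb or Cacng. The rule picked out 28 genes counted in at least 10% of cells, 91 counted in fewer cells and 19 with no count, of 48440 gene rows in all. Among them were 5 non-coding genes that carry such a symbol. The cells are labelled CAFs (cancer-associated fibroblasts, the fibroblasts that surround a tumour) from KrasLA1 mice with lung adenocarcinoma. No other genotype, treatment, age or control group was part of the measurement, and the labels name no animal or culture. All cells therefore counted as 1 sample, no test was possible, and every interval given is an exact 95% interval. Intervals of levels and ratios cover counting error, those of shares treat cells as independent draws, and neither covers differences between animals.

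Voltage-gated channels open when the membrane potential shifts and let sodium, calcium or potassium pass, and their accessory subunits set how many channels reach the membrane and how fast they gate. Potassium channels hold the resting membrane negative, and in contractile cells this restrains calcium entry through L-type channels. In lung, pericytes and vascular smooth muscle are known for such potassium channels and for the ATP-sensitive channel built from Kcnj8 and Abcc9. Fibroblasts are not electrically excitable in the usual sense.

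Each cell held 25029 to 240496 molecular barcode counts (median 88701). Levels are pooled counts (CPM), the summed counts of a gene scaled to 1000000 counts of the same cells. Of the 8 fibroblast markers listed, all 8 were counted in at least 10% of cells, and so were all 9 pericyte or smooth muscle markers. Sftpc, a surfactant gene of alveolar epithelium, was counted in 80.9% of cells at 483 CPM, and how much of any channel gene's share came from RNA of other cells was not tested. Of the 7 neuron genes listed, Tubb3 was the only 1 above the limit (15% of cells), Snap25 had no count, and 1.74% of cells had counts of at least 2 of them.

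Most channel genes were counted in few cells or in none. A count in at least 10% of cells (46 of 460) was found for 28 of the members, or 20.3%, where 28.9% of all gene rows reached that limit. At a limit of 25% of cells, 17 members remained, against 21.5% of all gene rows. In 9 members the share was at least 50%, and in 3 it was at least 90%. A further 91 members had counts in fewer cells, with no pooled level above 6.10 CPM, and 19 had no count, which allows each at most 0.0704 CPM (3 counts over all cells). The 19 without a count were Kcna1, Kcna4, Kcnc4, Kcnh5, Kcnv1, Kcne1, Kcnj1, Kcnj4, Kcnj11, Kcnj14, Kcnk9, Kcnk10, Kcnk15, Kcnk16, Kcnk18, Cacna1s, Cacng5, Cacng6 and Kcnmb4os1. The 2 members just above the limit were Kcnip1 (10.9% of cells) and Cacng7 (12.8%), and just below it lay Scn2a1, at 9.13%.

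**Figure D1:**
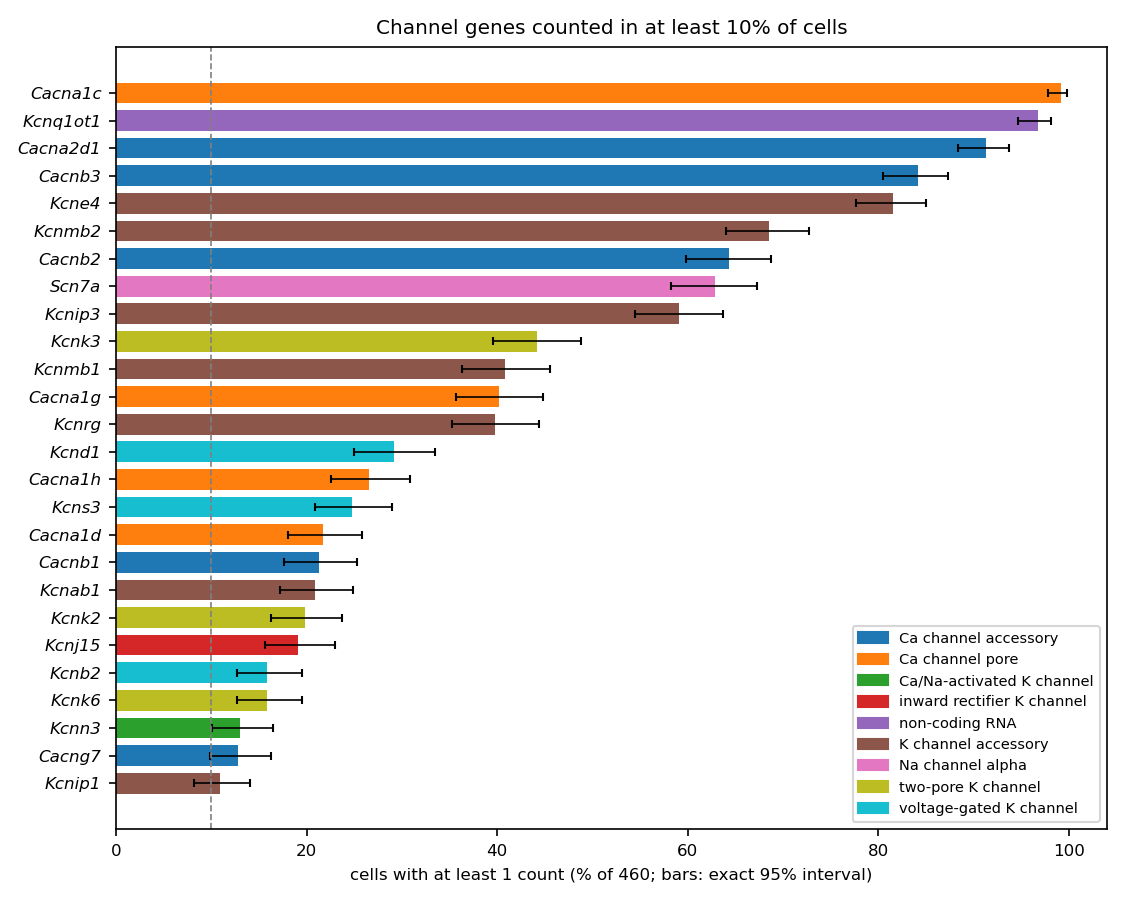
Share of the 460 cells with at least 1 count, in percent, for channel genes above the 10% limit (dashed line); bars are coloured by functional class and whiskers are exact 95% intervals. Cacna1c, Kcnq1ot1 and Cacna2d1 exceed 90%, and the shares decline to 10.9% for Kcnip1.

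Among the calcium channel genes, the L-type pore gene Cacna1c and the accessory gene Cacna2d1 were the most widely counted. Cacna1c, the pore of the L-type calcium channel of heart and smooth muscle, had a count in 99.1% of cells (97.8 to 99.8) at 351.7 CPM. Cacna2d1, the extracellular accessory subunit that binds gabapentin, was counted in 91.3% (88.4 to 93.7) at 108.4 CPM. The intracellular beta subunits followed, with Cacnb3 in 84.1% of cells (80.5 to 87.3; 72.3 CPM), Cacnb2 in 64.3% (59.8 to 68.7; 55.3 CPM) and Cacnb1 in 21.3% (17.7 to 25.3; 5.61 CPM). Of the other calcium channel pores, the T-type genes Cacna1g and Cacna1h were counted in 40.2% and 26.5% of cells and the L-type gene Cacna1d in 21.7%. Cacna1a came just short of the limit at 8.91%. Cacng7, whose product is best known as a partner of AMPA receptors, was counted in 12.8%.

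Per kilobase of exon, the order of levels was another. If each molecule was counted once, a level need not scale with exon length, and the counting step is not given in the sources used here. Kcne4, an accessory subunit that restrains channels of the Kcnq family, stood highest at 57.1 CPM per kilobase of exon. Kcnmb2 (18.6), Cacnb3 (18.03), Cacna1c (16.6), Scn7a (14.2), Kcnrg (12.1), Kcnip3 (10.4), Kcnk3 (8.89), Cacna2d1 (8.73) and Kcnmb1 (8.15) were also high on that scale. Kcnq1ot1, the long imprinted antisense RNA of the Kcnq1 locus, was the member with the most counts (390.9 CPM, 96.7% of cells) but held 4.20 CPM per kilobase. Among 10 sodium channel alpha subunit genes, Scn7a was the only 1 above the limit (62.8% of cells, 104.1 CPM). It encodes a sodium channel relative known as a sensor of extracellular sodium.

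Potassium channel genes above the limit came from pores and from accessory subunits. Among 17 accessory or regulator genes 7 passed the 10% limit, namely Kcne4 (81.5% of cells), Kcnmb2 (68.5%), Kcnip3 (59.1%), Kcnmb1 (40.9%), Kcnrg (39.8%), Kcnab1 (20.9%) and Kcnip1 (10.9%). Only 4 of 40 voltage-gated subunit genes passed, among them Kcnd1 (29.1%), Kcns3 (24.8%) and Kcnb2 (15.9%). The tandem-pore genes, whose channels carry background leak current, gave 3 of 14: Kcnk3 (44.1%), Kcnk2 (19.8%) and Kcnk6 (15.9%). Inward rectifiers gave 1 of 14, Kcnj15 (19.1%), and calcium- or sodium-activated channels 1 of 8, Kcnn3 (13.04%). The inward rectifier gene Kcnj8, counted in 89.3% of cells, is not among the 14 because the rule excepts it. Kcnma1, the pore to which the Kcnmb subunits belong, was counted in 5% of cells at 3.03 CPM, while 2 of its beta subunit genes, Kcnmb1 and Kcnmb2, passed the limit and Kcnmb3 (4.57%) and Kcnmb4 (8.48%) did not.

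The cells were then divided by whether the Rgs5 count exceeded the Pdgfra count. Rgs5, a regulator of G-protein signalling, marks pericytes, and Pdgfra, a receptor for platelet-derived growth factor, marks fibroblasts. Rgs5 was the higher in 44.1% of the 460 cells (39.5 to 48.8) and Pdgfra in the others, with no ties. Every cell had counts of both genes, 11 cells differed by at most 5 counts, and many had neither gene at 4 times the other, so the sets adjoin. Rgs5 stood at 4620 CPM in the first set and 367.9 in the rest, and Pdgfra at 408.6 and 1726, which is how the sets were made. Cells with Rgs5 above Pdgfra held fewer counts (median 76944 against 96654). After each cell was thinned to 56586 counts, which left out 46 shallower cells, the median cell had counts of 13 members in both sets, against 14 and 15 before thinning. The summed level of all members was close, at 1785 and 1721 CPM.

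Individual channel genes differed widely between the sets. A call here means a ratio of pooled CPM of at least 2, with no test behind it. Of the 28 members above the limit, 5 were at least 2-fold higher in the cells with Rgs5 above Pdgfra (17.9%; 3.98% among all 13975 genes above the limit). Another 8 were at least 2-fold lower (28.6%; 5.26% among all genes), and 15 lay between. Of the lower ones, Kcns3, Kcnb2 and Kcnip1 passed the 10% limit only through the set in which they were higher. The median log2 ratio was -0.24 over the members and 0.02 over all genes above the limit. At 1.5-fold the counts were 7 higher (9.07% of all genes) and 10 lower (11.1%), and at 3-fold 4 higher (1.83%) and 5 lower (2.24%). The higher ones were all potassium channel genes, among them the tandem-pore genes Kcnk3 and Kcnk2, the calcium-activated Kcnn3 and the accessory Kcnmb1. The lower ones were 2 of 4 calcium channel pores, 1 of 5 calcium accessory subunits, Scn7a, and 4 voltage-gated or accessory potassium channel genes.

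**Figure D2:**
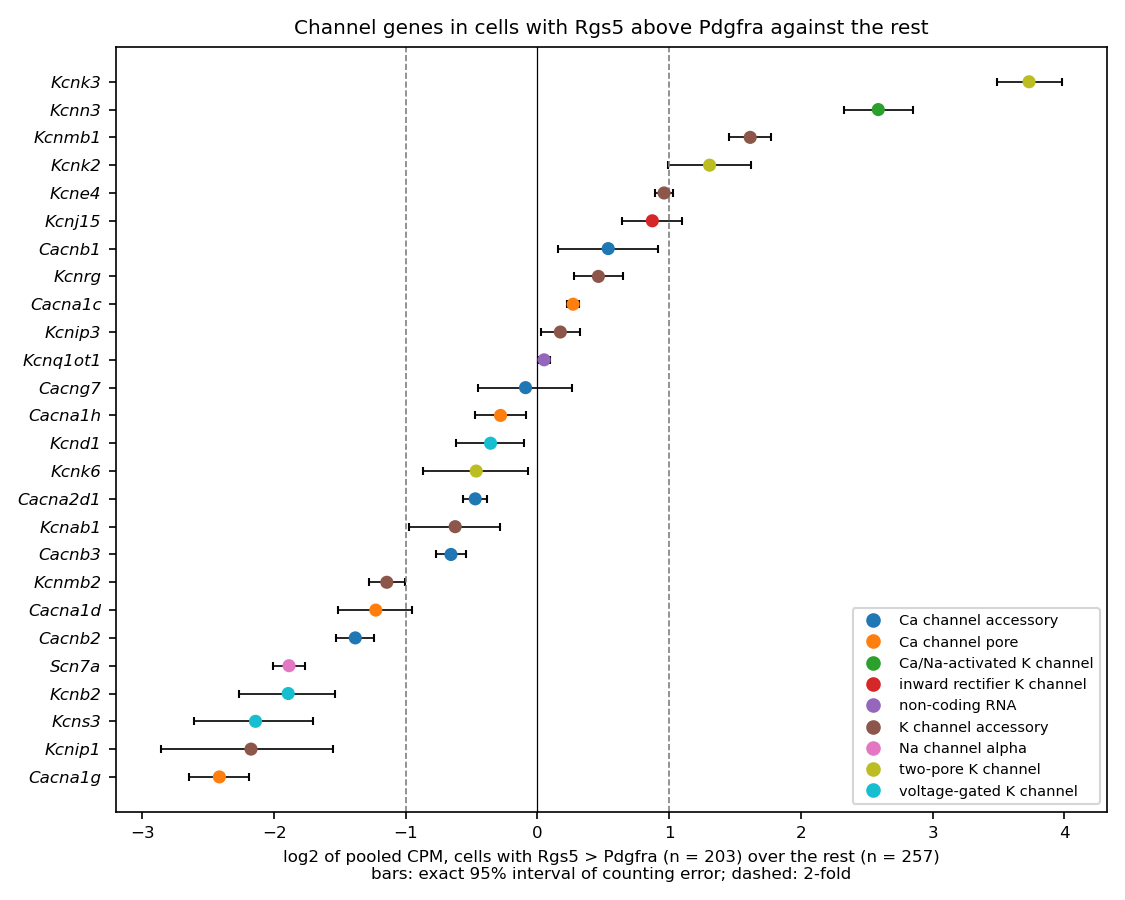
Log2 ratio of pooled CPM in the cells with Rgs5 above Pdgfra over the other cells for channel genes above the 10% limit, coloured by functional class; whiskers are exact 95% counting intervals and dashed lines mark 2-fold. Kcnk3 lies highest at 3.73 and Cacna1g lowest at -2.42.

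Kcnk3 separated the sets most. It encodes an acid-sensitive tandem-pore leak channel known from pulmonary artery smooth muscle. Single cells with Rgs5 above Pdgfra ranged from 0 to 599 CPM with a median of 53.8, and the rest from 0 to 184.3 with a median of 0, so the ranges overlapped and the medians lay apart. A count was found in 73.9% (67.3 to 79.8) against 20.6% (15.8 to 26.1) of cells, and in 69.01% against 13.99% after thinning. Pooled levels were 79.8 and 6.003 CPM, a ratio of 13.3 (11.2 to 15.8). Its exons share 5.76% of their bases with an unnamed transcript, Gm9899, on the opposite strand.

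Kcne4, whose product is an inhibitory partner of Kcnq channels, came just short of the 2-fold limit. The median cell had 153.01 CPM in the set with Rgs5 above Pdgfra and 28.7 in the rest, while single cells of both sets ranged from 0 upwards and overlapped (highest 1220 and 1533 CPM). The shares with a count were 92.1% (87.5 to 95.4) and 73.2% (67.3 to 78.5), or 91.8% and 66.3% after thinning. The pooled ratio was 1.95 (1.85 to 2.05), and it passed 2-fold in 6 of 9 other ways of computing it.

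Kcnk2, the mechanosensitive tandem-pore channel, reached 308.4 CPM in a single cell with Rgs5 above Pdgfra and 138.5 in the rest, with medians of 0. A count was found in 26.6% (20.7 to 33.2) and 14.4% (10.3 to 19.3) of cells, or 24.6% and 13.6% after thinning. Pooled levels were 13.2 and 5.34 CPM (ratio 2.47; 1.99 to 3.08). The difference rested partly on few cells, since the log2 ratio of 1.31 became 0.85 without the 5 cells highest in the gene. Of its exonic bases 12.2% are shared with A430027H14Rik on the opposite strand. Kcnk6, the other tandem-pore gene above the limit, had 4.66 CPM in the cells with Rgs5 above Pdgfra and 6.43 in the rest.

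Kcnn3, a small-conductance calcium-activated channel, had its counts in far fewer cells. Its pooled levels of 35.4 and 5.89 CPM gave a ratio of 6.01 (5.02 to 7.23), yet 5 cells held 67.4% of its counts and its share of cells was 16.7% (11.9 to 22.6) against 10.1% (6.72 to 14.5), or 15.8% against 9.05% after thinning. The 52 cells with a count of Ptprc, the pan-leukocyte gene, held 73.5% of the Kcnn3 counts and 12.2% of all counts. In 4 of its 5 highest cells Ptprc had 47 to 110 counts. Leaving out all 130 cells with a count of Ptprc, Epcam or Pecam1 (markers of leukocytes, epithelium and endothelium) brought the log2 ratio from 2.59 to 0.90, under the 2-fold limit. The cells left out include the 5 highest in Kcnn3. The part of leukocyte RNA in the Kcnn3 difference was not tested. Leukocyte markers as a list summed to 137.05 CPM in the cells with Rgs5 above Pdgfra (single cells 0 to 2984) and 40.03 in the rest (0 to 1099). All 4 above the limit were at least 2-fold higher, against 3.98% of all genes above it. Their shares of cells went no single way, at 11.3% and 11.3% for Ptprc and 39.9% and 44.4% for Cd68. For Csf1r they were 14.3% and 10.1%, and for Tyrobp 15.3% and 7.39%. Tyrobp thus passed the 10% limit only through the set in which it was higher.

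The 2 beta subunit genes of the large-conductance calcium-activated channel above the 10% limit went opposite ways. Kcnmb1, the subunit that raises calcium sensitivity in smooth muscle, ranged up to 479 CPM with a median of 11.2 in cells with Rgs5 above Pdgfra, and up to 260 with a median of 0 in the rest. It was counted in 53.2% (46.1 to 60.2) against 31.1% (25.5 to 37.2) of cells, or 50.3% against 23.9% after thinning, and its pooled levels of 57.4 and 18.7 CPM gave a ratio of 3.06 (2.74 to 3.42). Kcnmb2, which makes the channel inactivate, had a median of 11.7 CPM in the first set (highest 401.7) and 54.4 in the rest (highest 389.4). It was counted in 54.2% (47.1 to 61.2) against 79.8% (74.3 to 84.5), or 51.5% against 74.9% after thinning, and stood at 33.6 and 74.3 CPM, 2.21-fold lower (2.01 to 2.43). Their co-detection was alike, with both genes counted in 27.1% and 25.7% of cells. The pore gene Kcnma1 had 19 counts in the first set and 110 in the rest (1.12 and 4.29 CPM).

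Kcnmb1 (chr11:33963013-33973641, plus strand, GRCm38) lies inside the longer Kcnip1 gene (chr11:33629339-33993152, minus strand), which was lower in the cells with Rgs5 above Pdgfra; the pair shares no exonic bases. The 250 bases before the start of Kcnmb1 are shown because this nested promoter belongs to the member whose direction is opposite to that of its host. The promoter of Scn7a, the most abundant lower member, is set beside it. Both are from RefSeq on GRCm38.p6, 5′ to 3′ on the strand of the gene, and capitals mark an E box (CANNTG).
Kcnmb1, chr11:33962763-33963012, plus strand: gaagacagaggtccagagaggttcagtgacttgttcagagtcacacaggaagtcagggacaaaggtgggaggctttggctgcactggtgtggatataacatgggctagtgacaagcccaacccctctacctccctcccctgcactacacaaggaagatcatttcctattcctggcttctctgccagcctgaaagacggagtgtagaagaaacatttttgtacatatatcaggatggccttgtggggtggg
Scn7a, chr2:66784911-66785160, minus strand: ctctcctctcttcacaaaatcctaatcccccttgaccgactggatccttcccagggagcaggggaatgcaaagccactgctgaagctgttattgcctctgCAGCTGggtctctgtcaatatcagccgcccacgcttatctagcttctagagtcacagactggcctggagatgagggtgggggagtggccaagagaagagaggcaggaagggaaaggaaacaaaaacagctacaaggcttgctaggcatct
Of the 28 members above the limit, 20 have an entry in that promoter table. On both strands the Scn7a window held 1 E box, 1 GGAATG, 1 TGGGAA and 1 GGGCGG, and neither a TATAAA nor a CArG box, the element of serum response factor. The Kcnmb1 window held none of these. Among 32851 promoters of that length the shares were 66.2% for the E box, 12.6% for GGAATG, 21.6% for TGGGAA, 32.7% for GGGCGG, 12.4% for TATAAA and 1.47% for the CArG box. These matches describe letters in the window only.

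Scn7a was the most abundant of the genes that were lower in cells with Rgs5 above Pdgfra. Its single cells ranged from 0 to 986 CPM with a median of 0, and in the rest from 0 to 2194 with a median of 60.8. A count was found in 45.3% (38.3 to 52.4) against 76.7% (70.996 to 81.7) of cells, or 38.01% against 71.2% after thinning. Pooled levels were 39.7 and 146.8 CPM, 3.70-fold lower (3.41 to 4.02). Scn7a is also known from Schwann cells, and the glial list gave mixed values: Cdh19 had no count, Sox10 had 8 counts over all cells, while S100b, which other cells express too, stood at 7.08 and 47.3 CPM. The whole list summed to 18.6 CPM (single cells 0 to 251.7) and 51.2 CPM (0 to 729), with only S100b above the 10% limit. Counts of at least 2 of the 6 glial genes were found in 4.93% of cells with Rgs5 above Pdgfra and in 7.78% of the rest. The part of glial transcripts in the Scn7a difference was not tested.

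Of the 4 calcium channel pores above the limit, Cacna1g and Cacna1d were at least 2-fold lower in the cells with Rgs5 above Pdgfra, and Cacna1c and Cacna1h were not. Cacna1c was 392.1 CPM in cells with Rgs5 above Pdgfra and 325.01 in the rest (ratio 1.21; 1.17 to 1.25), with medians of 318.4 and 283.9 CPM per cell and a count in 99.01% and 99.2% of cells. Cacna1g, a T-type pore that opens at low voltage, stood at 10.7 and 57.3 CPM, 5.33-fold lower (4.57 to 6.26). Its median cell had 0 CPM (highest 316.6) against 8.73 (highest 710), and it was counted in 27.1% (21.1 to 33.8) against 50.6% (44.3 to 56.9), or 20.5% against 48.97% after thinning. Cacna1h, the other T-type pore, differed little (20.7 and 25.1 CPM; 1.21-fold lower, 1.06 to 1.39). Cacna1d was 8.14 and 19.1 CPM, 2.34-fold lower (1.94 to 2.85), counted in 15.3% (10.6 to 20.97) against 26.8% (21.5 to 32.7) of cells, or 11.1% against 23.05% after thinning. Its 5 highest cells held 25.2% of its counts, and without them the log2 ratio of -1.23 became -0.97.

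Of the calcium accessory subunits, Cacnb2 was the only called gene. The median cell had 0 CPM with Rgs5 above Pdgfra (highest 310) and 48.4 in the rest (highest 337.9). A count was found in 49.3% (42.2 to 56.4) against 76.3% (70.6 to 81.3) of cells, or 43.3% against 71.2% after thinning, and pooled levels of 28.1 and 73.2 CPM were 2.61-fold apart (2.36 to 2.89). Cacnb3 was 53.7 and 84.6 CPM (1.58-fold lower, 1.46 to 1.71), Cacna2d1 87.9 and 122.01 CPM (1.39-fold lower, 1.30 to 1.48), Cacnb1 6.90 and 4.76 CPM (ratio 1.45, 1.12 to 1.89), and Cacng7 6.37 and 6.78 CPM. As a class these accessory genes summed to 185.3 and 296.8 CPM, while the calcium pores summed to 434.2 and 430.998.

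**Figure D3:**
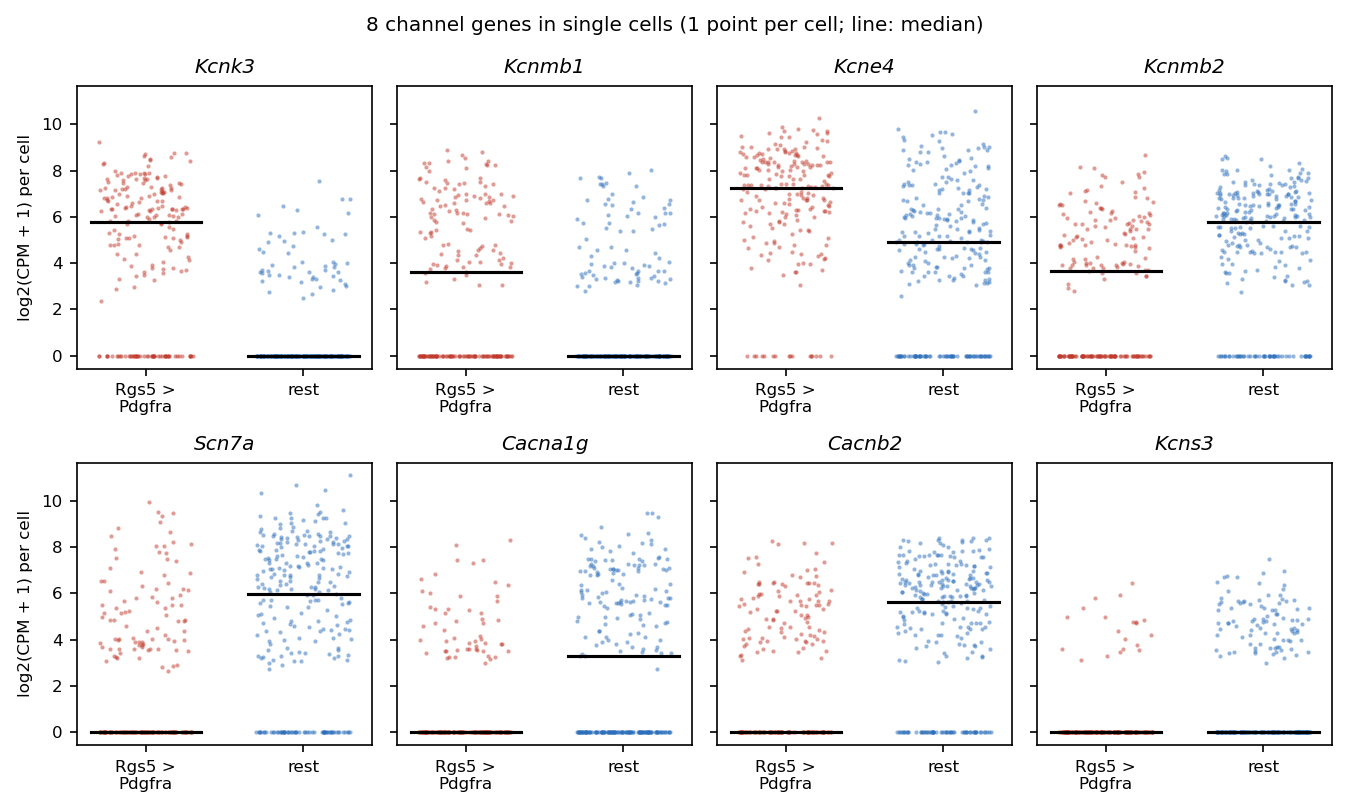
Log2 of CPM + 1 per cell for 8 channel genes, 1 point per cell, in the cells with Rgs5 above Pdgfra and the others; lines are medians. Kcnk3, Kcnmb1 and Kcne4 have the higher median in the first set, Kcnmb2, Scn7a, Cacna1g and Cacnb2 in the rest, and the median of Kcns3 is 0 in both.

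The remaining lower members were voltage-gated potassium channel subunits and 1 of their partners. Kcns3, a silent subunit that modifies channels of the Kcnb family, was 2.89 and 12.7 CPM (4.41-fold lower, 3.26 to 6.08) and was counted in 9.85% (6.12 to 14.8) against 36.6% (30.7 to 42.8) of cells, or 8.77% against 29.6% after thinning. Kcnb2, a delayed rectifier pore, was 4.48 and 16.6 CPM (3.71-fold lower, 2.90 to 4.80) in 8.37% (4.95 to 13.1) against 21.8% (16.9 to 27.3) of cells, or 8.19% against 19.8% after thinning. Kcnip1, a calcium-binding partner of Kcnd channels, was 1.42 and 6.39 CPM (4.52-fold lower, 2.93 to 7.25), counted in 4.93% (2.39 to 8.87) against 15.6% (11.4 to 20.6) of cells, or 4.09% against 13.2% after thinning. The median cell was at 0 for all 3 genes in both sets. Highest cells were 86.03 and 177.9 CPM for Kcns3, 304.6 and 303.5 for Kcnb2, and 78.8 and 170 for Kcnip1, so only a minority of cells carried each difference.

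Genes within 2-fold included the remaining partners. Kcnip3, a calcium-binding protein that serves Kcnd channels and also binds DNA, was 39.6 and 35.1 CPM (ratio 1.13, 1.02 to 1.25), and Kcnd1, the only Kcnd pore above the limit, 11.2 and 14.3 CPM. Kcnrg, named as a regulator of potassium channels, was 26.5 and 19.2 CPM, Kcnab1, a cytoplasmic beta subunit, 6.02 and 9.28, and Kcnq1ot1 399.1 and 385.4. Exons of Kcnq1ot1 (with Kcnq1), Kcnab1, Kcnj15, Cacna1d (with Chdh), Cacna1h (with Tpsg1), Cacnb1 and Cacnb2 overlap genes on the opposite strand, by at most 5.27% of their bases with any single gene, and reads of such partners cannot be told apart if counting ignored strand.

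The inward rectifier Kcnj15 was 20.8 and 11.3 CPM (ratio 1.83, 1.56 to 2.14), but its shares of cells ran the other way (17.7% and 20.2%), so no order is read from them. Its 5 highest cells held 44.8% of its counts, and the 25 cells with a count of Epcam, an epithelial gene, held 36.6%. It was also the member most unequal along the table. In runs of neighbouring columns in which Sftpc was low, it was counted in 1 cell (0.787% of the cells there; 0.0199 to 4.31), against 87 cells in the other columns (26.1%; 21.5 to 31.2). Lung epithelium markers as a list summed to 1305 CPM in cells with Rgs5 above Pdgfra (single cells 0 to 20083) and 816 in the rest (0 to 23072). Of 6 above the limit 2 were at least 2-fold higher, against 3.98% of all genes above it. The part of epithelial RNA in these values was not tested.

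Several members under the 10% limit had uneven counts that are given without a call. Scn4b, a sodium channel beta subunit, was at 12.1 CPM in cells with Rgs5 above Pdgfra and 2.10 in the rest (8.70% of all cells), and Scn3b at 4.13 and 0.896. The inward rectifiers Kcnj2 (9.08 and 1.05 CPM) and Kcnj12 (5.31 and 0.702) leaned the same way, although 5 cells held 80.7% of the Kcnj2 counts. Kcnt2, a sodium-activated channel, was at 4.07 and 2.18. The sodium channel pores Scn2a1 (2.42 and 3.74 CPM) and Scn8a (2.83 and 2.49), and the non-coding Kcnmb4os2 (14 and 4 counts) and Kcnd3os (0 and 4 counts) were the other abundant members of their classes under the limit.

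Correlations between channel genes from cell to cell were mostly near 0. Over all pairs of the 28 members the median Spearman correlation across 460 cells was 0.01, and 3 pairs exceeded 0.3. Among them were Kcnk3 with Kcne4 at 0.31, which was 0.17 within the cells with Rgs5 above Pdgfra and 0.04 within the rest, and Cacna1d with Scn7a at 0.30 (0.23 and 0.29 within the sets). Kcnmb2 with Cacnb2 reached 0.26 (0.19 and 0.16). Both Kcnk3 and Kcne4 were counted in 69.9% of the cells with Rgs5 above Pdgfra and in 15.6% of the rest. Each share lay close to the one that the shares of the single genes would give if the genes were independent. The lowest were Kcnk3 with Scn7a (-0.36) and Kcne4 with Scn7a (-0.30). Within the cells with Rgs5 above Pdgfra and within the rest these were nearer 0, at -0.24 and -0.05 for the first pair and -0.13 and -0.17 for the second. Within either set no pair exceeded 0.3. These values describe cells that share a table and differ in depth, and they carry no test.

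**Figure D4:**
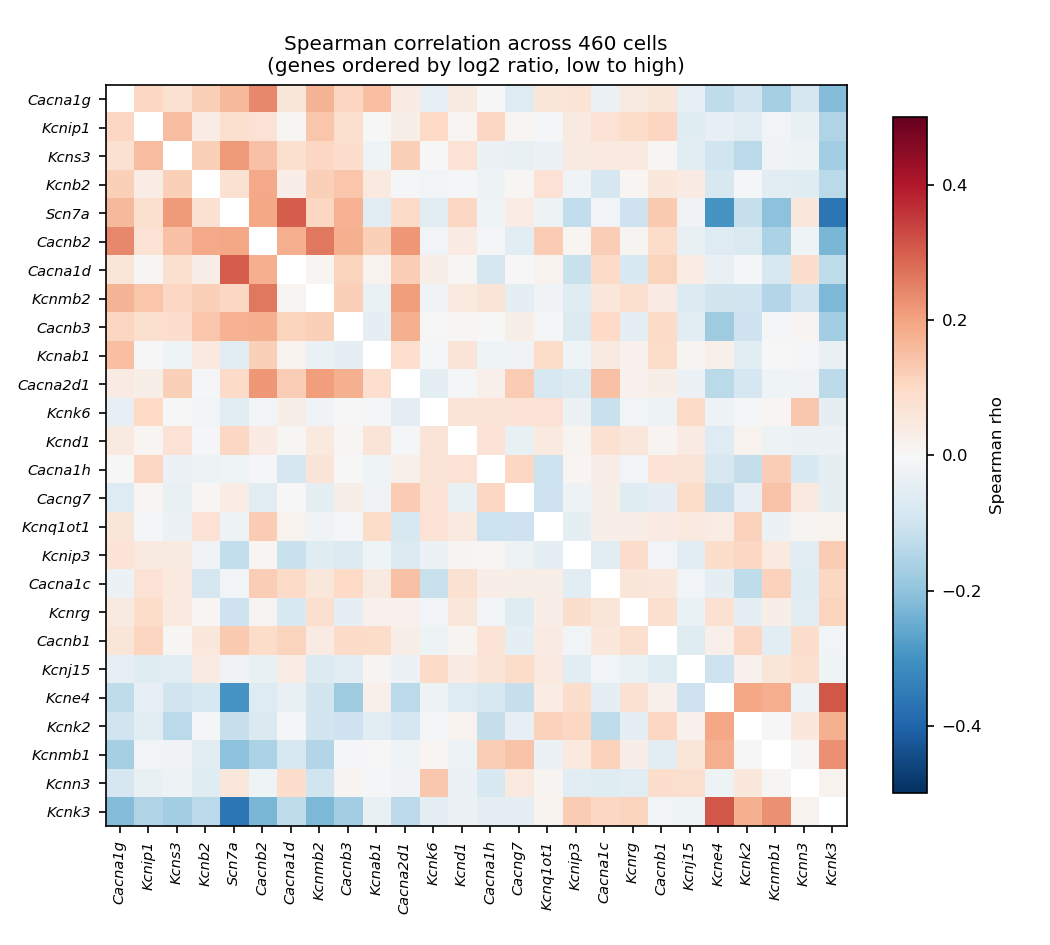
Spearman correlation between channel genes above the 10% limit across 460 cells, on counts scaled per cell, with genes ordered from the lowest to the highest log2 ratio. At the lower right, Kcnk3, Kcnmb1 and Kcne4 are red with each other, with 0.31 for Kcnk3 and Kcne4. Kcnn3 and Kcnk2 also lie there. Kcnn3 is at 0.02 with Kcnk3, 0.004 with Kcnmb1 and -0.02 with Kcne4. Kcnk2 is at 0.18, -0.001 and 0.19 with the same genes. The blue cells in the opposite corners hold negative values such as -0.36 for Kcnk3 and Scn7a.

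Correlations with genes outside these families were taken inside each set. With Rgs5 above Pdgfra, Kcnk3 correlated with Abcc9 at 0.32 and Kcne4 with Kcnj8 at 0.39, against 0.11 and 0.15 in the rest. Kcnmb1 correlated with the contractile genes Acta2 and Tagln in both sets. The values were 0.22 and 0.22 with Rgs5 above Pdgfra and 0.29 and 0.26 in the rest. Kcne4 was negative with both genes in the first set (-0.23 and -0.31) and weaker in the rest (-0.06 and -0.13). Scn7a correlated with Dcn, the gene of the matrix proteoglycan decorin, at 0.36 and 0.26, and Cacna1c with Tagln at 0.33 and 0.25.

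The labels give no batch, but part of the table's columns lay in runs low in Sftpc, and the share of cells with Rgs5 above Pdgfra was 50.4% there and 41.7% in the other columns. Between these column sets 0 members were at least 2-fold higher and 3 at least 2-fold lower in the low runs, namely Kcnj15, Kcnb2 and Cacna1d. Among all 13975 genes above the limit 0.73% were at least 2-fold higher there and 3.31% at least 2-fold lower. The log2 ratio of cells with Rgs5 above Pdgfra over the rest was then taken inside each. It was 2.98 in the low runs and 3.996 in the other columns for Kcnk3, 2.64 and 1.37 for Kcnmb1, 3.24 and 2.32 for Kcnn3, and 1.03 and 0.86 for Kcne4. Lower members gave -2.35 and -2.41 for Cacna1g, -1.29 and -2.00 for Scn7a, -1.73 and -1.27 for Cacnb2, -2.67 and -1.97 for Kcns3, -2.24 and -1.76 for Kcnb2 and -1.81 and -1.07 for Cacna1d. The 2-fold call ended inside 1 column set for Kcnk2 (2.32 and 0.80), Kcnmb2 (-0.68 and -1.32) and Kcnip1 (-0.97 and -3.13). Cacng7 changed sign, at 2.47 and -0.74. The median log2 ratio of the members, -0.24 over all cells, was 0.0799 inside the low runs.

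**Figure D5:**
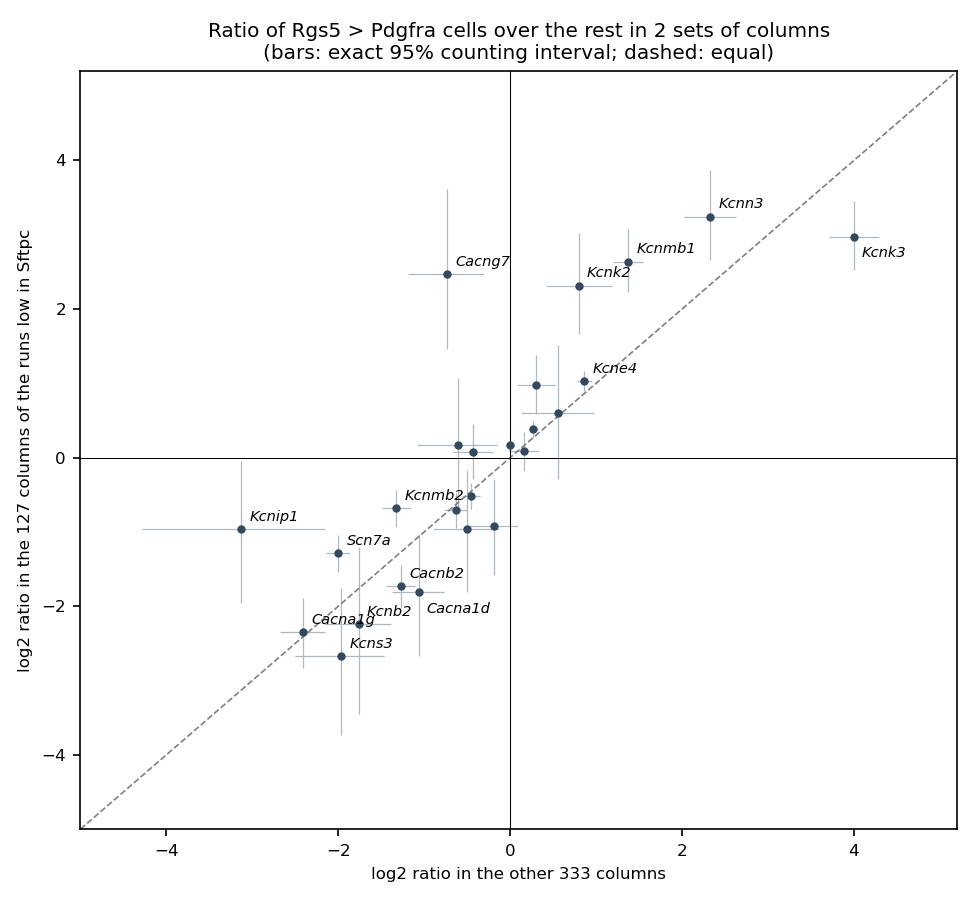
Log2 ratio of pooled CPM, cells with Rgs5 above Pdgfra over the rest, in the other columns (x axis) and in the columns of the runs low in Sftpc (y axis), 1 point per channel gene with exact 95% counting intervals; genes past 2-fold on either axis are named. Kcnj15 is left out because it had no count in the rest of the low runs. Kcnk3 lies far to the upper right, Cacna1g and Kcns3 to the lower left, and Cacng7 at 2.47 and -0.74 lies off the line.

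Channels and transporters outside these families, in lists chosen by hand, were set beside the members. Abcc9 is also 1 of the listed pericyte or smooth muscle markers. Of the listed genes 65 passed the 10% limit, of which 8 were at least 2-fold higher in cells with Rgs5 above Pdgfra (12.3%) and 2 lower (3.08%). Among all 13975 genes above the limit the shares were 3.98% and 5.26%, and each list below is to be set against these. Of 3 listed genes of the ATP-sensitive potassium channel, the 2 above the limit were both higher, the pore gene Kcnj8 at 280 and 71.2 CPM (ratio 3.94, 3.73 to 4.16) and the sulfonylurea receptor gene Abcc9 at 1300.2 and 279.1 CPM (4.66, 4.54 to 4.78). Among 16 pumps and exchangers, led in the cells with Rgs5 above Pdgfra by the sodium-potassium-chloride carrier Slc12a2 (889 and 210.6 CPM), 4 were higher: Slc12a2, the sodium pump subunits Atp1b2 (237.01 and 69.9) and Atp1b1 (40.6 and 14.4), and the calcium pump Atp2a3 (12.8 and 2.34). Of 19 chloride channel genes 1 was higher, the calcium-activated Ano1 (157.6 and 63.6 CPM), while the most abundant, Clic4, was 461 and 422.5.

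Calcium release and store entry gave 1 of 8 higher, the inositol trisphosphate receptor Itpr3 (24.9 and 12.4 CPM). The shares of cells with a count of Itpr3 ran the other way (23.2% and 31.1%), so no order is read for it. The most abundant gene of that list, Itpr1, was 230.3 and 305.05. None of 8 TRP channels was called, with Pkd1 at 515 and 463 CPM and Trpc6 just short of the limit at 369.4 and 190.2. Neither stretch channel was called (Piezo2 575 and 645, Piezo1 357.7 and 250). Of 10 ligand-gated channel genes 2 were lower, the AMPA receptor subunits Gria3 (38.5 and 121.9 CPM, 3.17-fold) and Gria4 (4.84 and 14.9). Gria4 was counted in 8.37% and 11.3% of cells, so it passed the 10% limit only through the set in which it was higher. The most abundant, the ATP receptor P2rx4, was 125.1 and 73.4.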

How the data were processed

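Barcode counts were used as deposited, in whole numbers, 48440 gene rows by 460 cell columns, per the file headers. STAR, HTSeq and mm10 are named in the submitters' processing notes, with no versions. The step from reads to barcode counts, and whether counting used strand, are not given in the sources used here. All cells were kept and doublets were not called. Rgs5 exceeded Pdgfra in 203 cells and Pdgfra exceeded Rgs5 in 257; in 151 neither was 4 times the other. Pooled CPM and their ratios were computed with exact conditional binomial intervals, shares with exact Clopper-Pearson intervals at 95%. Calls needed a count in 10% of cells and a ratio of 2. No test was made, since the labels name no animal. Thinning to 56586 counts kept 171 and 243 of them. Runs low in Sftpc (127 columns, 333 others) are those in which, among a column's 20 nearest neighbours, over 50% had less than 30 CPM of it. Correlations used counts scaled to 10000 per cell. Loci and exonic lengths came from GENCODE vM21, which matched all 138 members. Fold changes set on 13975 genes of simulated data were called for 50 of 50 genes at a ratio of 4, 47 of 50 at 2.5, 50 of 50 at 0.25, 49 of 50 at 0.4, and for 4 of 13748 unchanged genes. The simulation gave every gene the same spread between cells, whereas 3 cells held at least 50% of the Kcnn3 counts. It therefore checks the computation only, and its share of false calls does not carry over to these data.

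Members above the 10% limit are named, except a few that are not reported here; counts, medians and list sums still include those. Values are in full for members past 2-fold and for the 3 most abundant per class, the 2 nearest the limit on each side and the 5 highest and 3 lowest pairs. Related genes are named where past 2-fold, with the most abundant of each list. A few genes near a limit (Trpc6, Cacna1a, Piezo1) and correlations with marker genes were named after their values were seen. Members and lists were chosen with earlier results of these data known. Alternatives changed the detection limit, fold, thinning, averaging, centring, cells and columns. Computation used scipy 1.17.1, numpy 2.4.6 and pandas 2.3.3 in Python 3.11.15, and matplotlib 3.10.9 for the plots.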

Additional observations from a re-analysis of the deposited data

How the results depend on the processing

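Of the 13 members past 2-fold, 8 stayed past it under all 9 alternatives that gave each member a ratio (among them Kcnk3, Kcnmb1, Cacna1g, Scn7a, Kcns3, Kcnb2 and Cacnb2), and none of the 13 changed direction. The other 5 (Kcnn3, Kcnk2, Cacna1d, Kcnmb2 and Kcnip1) fell within 2-fold in at least 1. With a limit of 5% of cells 51 members were counted, 14 higher and 14 lower (5.58% and 6.79% of all genes under that limit), and with 25% of cells 17, with 3 higher and 4 lower (2.86% and 3.9% of all genes). With no limit but at least 20 counts 21 were higher and 19 lower (8.61% and 9.24% of all genes), and the median log2 ratio turned to 0.118. It also turned, to 0.0799, in the columns low in Sftpc, where 17 related genes were called in place of 10 and the share of cells with Rgs5 above Pdgfra was 50.4%. The share of all genes called in those columns was not computed. At a fold of 3, 5 members were lower. Leaving out cells with Ptprc, Epcam or Pecam1 was added after seeing the data. The cause of these shifts was not tested. No paired analysis was possible because all cells form 1 group and the labels name no animal.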
